A study of Mus musculus with 5 samples.

Results

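Haematopoietic stem cells that keep blood formation going for life are rare, and they are recognised by a small set of surface proteins and transcription factors rather than by any single marker. The 10 marker genes described here are Slamf1, Cd48, Procr, Esam, Ly6a and Cd34, which encode surface proteins used in sorting, the transcription factors Hlf and Mecom, and Fgd5 and Ctnnal1, whose loci have been used to build stem cell reporter mice. Most are high in long-term stem cells, whereas CD48 and CD34 appear on the surface as mouse stem cells turn into progenitors. The members were chosen by gene symbol, and all 10 were present among the 33894 named genes of the deposited tables. All 10 also passed the filter on low counts, which left 13696 genes for testing.

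RNA was measured by bulk sequencing (Smart-seq2, a full-length method for small inputs) in bone marrow cells of 8-week-old mice. The sort kept cells with Sca1 and much c-Kit on the surface, and removed those with lineage markers, CD34 or Flt3. Of the 5 libraries, 3 are labelled dKO (Lrp6 fl/fl and Lrp5 fl/fl, floxed alleles of both Wnt co-receptor genes, together with Vav-cre, a Cre transgene whose promoter is active across blood lineages), and 2 are labelled WT, for which no Cre is named. Each was made from 6K sorted cells. The labels leave out whether a library came from 1 mouse or a pool, so p-values cover only the spread from library to library, which may be technical. An effect of Cre and one of the deleted genes cannot be told apart.

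Libraries held between 16028512 and 28027458 counts, with the fewest in dKO replicate 2, which also had the fewest detected genes (12894, against 14750 to 16098 in the others). Lrp6 had 790, 260 and 767 counts in the libraries labelled dKO, against 660 and 232 in WT, and Lrp5 had 37, 2 and 71 counts, against 7 and 32. For both targeted genes the groups overlapped in counts and the libraries labelled dKO were not the lower ones. Whole-gene counts can miss a lost exon, so each direction below rests on the labels. Kit and Ly6a, genes of the sort, were abundant, and the T cell gene Cd3e and the neutrophil gene Ly6g had 0 counts in all 5 libraries. Other lineage genes were detected: Itgam, a myeloid integrin, had 536, 421 and 531 counts in the libraries labelled dKO, against 163 and 209 in WT, a log2 fold change of 1.57, and Cd4 had 106, 145 and 19 counts, against 51 and 49 in WT. Flt3 transcripts were nevertheless present at 175, 157 and 167 TPM (a transcript level scaled to gene length and library size) in the libraries labelled dKO, against 111 and 47.2 TPM in WT.

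The stem cell transcription factor Hlf and, less evenly, Mecom were higher in the libraries labelled dKO, Procr and Esam leaned the same way, and Ly6a, Cd34 and Ctnnal1 had fold changes close to 0. Cd48 was the member with the most negative fold change. None of these differences passed the test over all genes: with edgeR's quasi-likelihood test and Benjamini-Hochberg adjustment, 0 of the 10 members had an adjusted p under 0.05, where 0% of all 13696 genes were called higher and 0% lower. At an unadjusted p under 0.05 the count was 1 member, Hlf, against a background of 4.94% of genes higher and 5.19% lower. DESeq2 called Hlf alone among the members, where it called 1.12% of all genes higher and 0.664% lower, and limma on log2 TPM called none. Of the 10 members 7 had a positive log2 fold change (52.2% of all genes did), with a median of 0.52 over the members and 0.04 over all genes tested. The members' median was 0.30 without WT replicate 2 and 0.23 without dKO replicate 1.

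Hlf and Mecom have annotated promoters that can be set beside their values, as does Procr, the surface marker with the next smallest p-value. The 250 bases before the transcription start are shown for these 3 genes from RefSeq on GRCm38.p6, for Hlf at chr11:90390918-90391167 (minus strand), for Mecom at chr3:30509760-30510009 (minus strand, the start of its longer transcripts) and for Procr at chr2:155750967-155751216 (plus strand). Capitals mark matches, on either strand, to the cyclic AMP response element TGACGTCA, the AP-1 element (TGA, any base, TCA) and the TCF/LEF core CTTTGA, the last being the site of the factors that act with beta-catenin.
Hlf: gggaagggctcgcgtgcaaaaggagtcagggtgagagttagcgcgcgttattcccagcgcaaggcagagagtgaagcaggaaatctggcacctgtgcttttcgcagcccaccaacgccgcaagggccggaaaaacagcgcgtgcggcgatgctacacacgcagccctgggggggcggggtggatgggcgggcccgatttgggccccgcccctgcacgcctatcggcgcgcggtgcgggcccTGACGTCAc
Mecom: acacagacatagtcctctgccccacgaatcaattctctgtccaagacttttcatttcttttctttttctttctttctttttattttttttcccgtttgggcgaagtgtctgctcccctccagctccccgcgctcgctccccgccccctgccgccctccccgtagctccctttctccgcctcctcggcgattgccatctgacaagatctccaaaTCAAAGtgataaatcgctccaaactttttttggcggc
Procr: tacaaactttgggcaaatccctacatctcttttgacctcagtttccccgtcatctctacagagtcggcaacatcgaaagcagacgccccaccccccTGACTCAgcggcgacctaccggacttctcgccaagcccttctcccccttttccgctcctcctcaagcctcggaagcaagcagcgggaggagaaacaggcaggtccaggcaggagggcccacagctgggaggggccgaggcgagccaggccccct

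The match in Hlf lies 9 to 2 bases before the start, that in Procr 154 to 148 and that in Mecom 37 to 32. Among all 32851 promoter windows of this length, 1.55% hold the cyclic AMP response element, 6.75% the AP-1 element and 13.8% the TCF/LEF core. Over the 9 windows found for 8 of the members, the TCF/LEF core occurred in 2, that of Cd48 and the Mecom window shown, and the other elements in 1 each. Mecom has a second window further downstream, at chr3:30013205-30013454 (minus strand), which held no match to any element searched. The GATA factor element, spelled AGATAA, had no match, and RUNX (TGTGGT) and ETS (CCGGAA) had 1 each, in Cd48 and in Hlf, against 9.99%, 14.0% and 12.0% of all windows. The elements were picked after the windows had been read, and a match is a description of letters, not of binding.

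**Figure D1:**
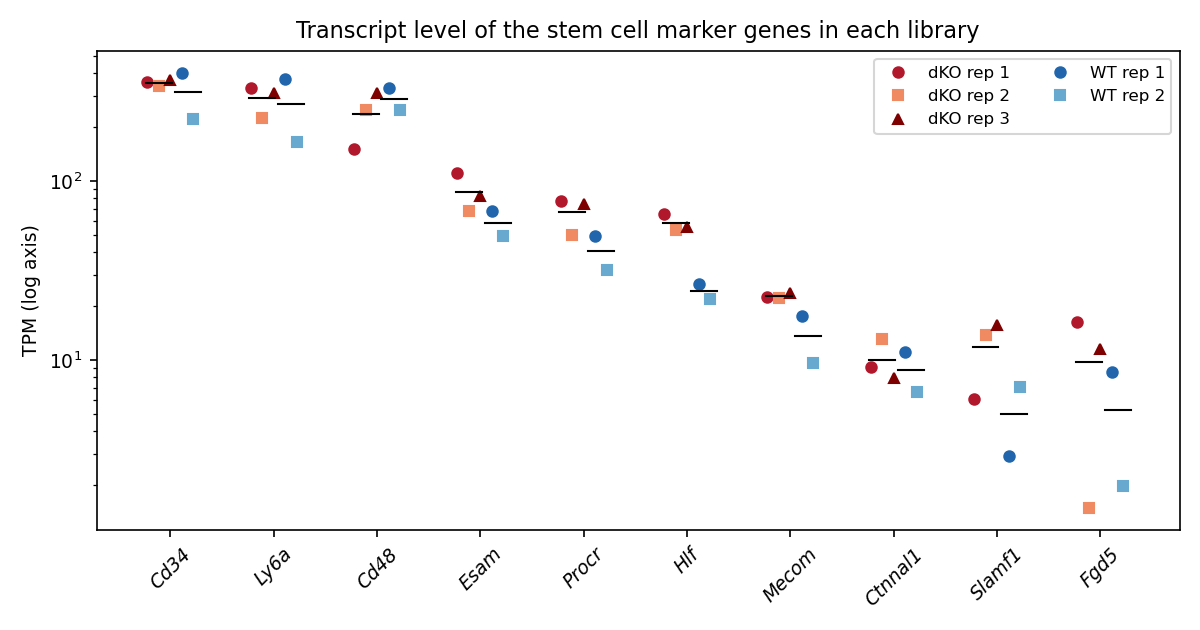
TPM of the 10 members in each library on a log axis, ordered by mean level, with the libraries labelled dKO (red shades) left of WT (blue shades) for each gene and bars at the group means. Hlf, Mecom, Procr and Esam have all 3 libraries labelled dKO above both WT libraries in TPM, where 18.6% of all genes lay above and 8.81% below. Procr and Esam separate only narrowly (49.7 against 49.4 TPM and 67.9 against 67.8 TPM at the nearest libraries) and overlap on CPM. Fgd5 spreads most within the libraries labelled dKO.

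Hlf, a PAR bZIP transcription factor that marks stem cells from the embryo onward, had the clearest separation. Its level was 65.6, 53.6 and 55.6 TPM in the libraries labelled dKO, against 26.7 and 22.0 TPM in WT. All 3 libraries labelled dKO lay above both WT libraries, and the spread within each group was small (58.3 ± 6.40 TPM, SD, n = 3, against 24.4 ± 3.29 TPM, SD, n = 2). On counts its log2 fold change was 0.89 (95% interval 0.41 to 1.38), and its adjusted p was 0.430 in edgeR's quasi-likelihood test after Benjamini-Hochberg adjustment. With 1 library left out at a time it ranged from 0.74 to 1.06. DESeq2 gave an adjusted p of 0.0147 at a log2 fold change of 0.90. The biological coefficient of variation of Hlf, the spread between libraries of a group beyond counting error, was 20.3%, the lowest of the 10 members.

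Mecom, which encodes the zinc finger factor EVI1 needed to keep stem cells, stood at 22.6, 22.3 and 23.8 TPM in the libraries labelled dKO and at 17.7 and 9.58 TPM in WT. The libraries labelled dKO were nearly equal, and the WT libraries differed 1.85-fold from each other. Its log2 fold change was 0.69 (95% interval -0.12 to 1.49), with an adjusted p of 0.553 from edgeR. Leaving out WT replicate 2 gave 0.30 and leaving out WT replicate 1 gave 1.2. Mecom and Hlf were the 2 members whose groups did not overlap on CPM (counts scaled to library size), where 13.7% of all genes lay above and 15.6% below WT in every library labelled dKO.

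Among the surface proteins, Procr, the endothelial protein C receptor, measured 77.2, 49.7 and 74.8 TPM in the libraries labelled dKO and 49.4 and 32.0 TPM in WT. Esam, an adhesion molecule of endothelial and stem cells, measured 111, 67.9 and 83.1 TPM in the libraries labelled dKO, against 67.8 and 49.7 TPM in WT. In both genes dKO replicate 2 was nearly level with WT replicate 1, and the groups touched without overlapping in TPM. On CPM they did overlap: Procr stood at 45.7 CPM in dKO replicate 2 and 51.6 CPM in WT replicate 1, and Esam at 64.9 and 71.0 CPM. In TPM 4 members (Hlf, Mecom, Procr and Esam) thus lay above WT in every library labelled dKO, where 18.6% of all genes lay above and 8.81% below. The log2 fold changes on counts were 0.61 for Procr (95% interval -0.20 to 1.43) and 0.42 for Esam (-0.26 to 1.11), with adjusted p = 0.601 and 0.701 by the edgeR test. For Procr it became 0.32 without WT replicate 2 and 0.97 with WT replicate 1 left out instead, and for Esam 0.21 without dKO replicate 1.

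Ly6a, which encodes Sca1, and Cd34, a sialomucin, were among the most abundant members and did not separate the groups. Ly6a had 332, 226 and 311 TPM in the libraries labelled dKO, against 372 and 165 TPM in WT. Cd34 had 357, 338 and 365 TPM in the libraries labelled dKO, against 405 and 224 TPM in WT. In both genes the WT libraries were the highest and the lowest of all 5, and the libraries labelled dKO lay between them. Their log2 fold changes were -0.03 (95% interval -0.79 to 0.72) and 0.02 (-0.51 to 0.55), so changes of 2-fold, a log2 value of 1, lay outside both intervals. The sign of each turned with the WT library kept: without WT replicate 1 the values were 0.52 for Ly6a and 0.39 for Cd34, and without WT replicate 2 they were -0.43 and -0.28. Ly6a was also positive on log2 TPM (0.21 with a pseudocount of 1).

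Cd34 transcripts averaged 353 ± 13.7 TPM over the 3 libraries labelled dKO and 314 ± 128 TPM over the 2 WT libraries (± SD), although the sort excluded cells with the protein on their surface. Cd34 stood above 96.3% of tested genes by mean TPM. An antisense gene, Gm16897, overlaps Cd34 in GENCODE M21. It had 65 to 172 counts per library, against 16024 to 31887 for Cd34, and reads of such partners cannot be told apart where strand is unknown.

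Slamf1 (CD150) and Cd48 belong to the SLAM family of receptors and are next to each other on chromosome 1 in GENCODE M21, and their proteins are used in opposite senses to sort stem cells: CD150 present, CD48 absent. Slamf1 had 6.06, 13.8 and 15.6 TPM in the libraries labelled dKO, against 2.91 and 7.12 TPM in WT. Cd48 had 152, 249 and 312 TPM in the libraries labelled dKO, against 330 and 250 TPM in WT. For Slamf1 dKO replicate 1 lay below WT replicate 2, and for Cd48 dKO replicate 3 lay between the WT libraries, so neither gene separated the groups. The log2 fold changes on counts were 0.98 for Slamf1 (95% interval -0.65 to 2.61, adjusted p = 0.714 by the edgeR test) and -0.44 for Cd48 (-1.21 to 0.32, adjusted p = 0.724). For Slamf1 it became 1.87 without WT replicate 2 and 0.42 with WT replicate 1 left out instead. That of Cd48 was -0.18 without dKO replicate 1 and -0.77 without dKO replicate 3.

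Taken as a ratio within each library, the SLAM pair did separate the groups. There were 25.0, 18.0 and 20.0 Cd48 transcripts per Slamf1 transcript in the libraries labelled dKO, against 113 and 35.1 in WT, on the TPM scale. The mean log2 ratio of Slamf1 to Cd48, with 1 TPM added to each, was -4.25 ± 0.179 (SD, n = 3 libraries labelled dKO) and -5.67 ± 1.03 (SD, n = 2 WT libraries), a difference of 1.43. An exact two-sided permutation test over the libraries gave p = 0.1, the smallest that 3 against 2 libraries allow. How many other pairs of genes separate the groups in this way was not tested. The most extreme ratio was that of WT replicate 1, which had 121 Slamf1 counts, and without that library the difference was 0.70. Leaving out WT replicate 2 instead gave 2.15. The pair is flanked by Slamf7, a receptor next to Cd48, and by Cd84, next to Slamf1, with log2 fold changes of 1.2 and 0.36. Slamf7 rested on few reads, at 59, 0 and 188 counts in the libraries labelled dKO, against 58 and 11 in WT, and was at -0.27 without dKO replicate 3. Cd84 was at 0.21 without that library. Ly9 and Cd244, further members of the family, had -0.35 (-0.22 without WT replicate 1) and -0.91. Cd244 ranged from 13.8 to 64.0 CPM within WT alone, and its fold change was 0.58 without WT replicate 1. Of 9 tested SLAM family and adaptor genes, the pair included, 3 were higher and 6 lower, and 0 were called. Of those lower, Sh2d1b1, Slamf6 and Slamf8 also rested on few reads, with 0 counts in dKO replicate 2. A filter of 5 CPM in 2 libraries left 6 genes, 2 higher and 4 lower. The median of -0.35 became 0.36 without WT replicate 1 and 0.14 without dKO replicate 2.

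**Figure D2:**
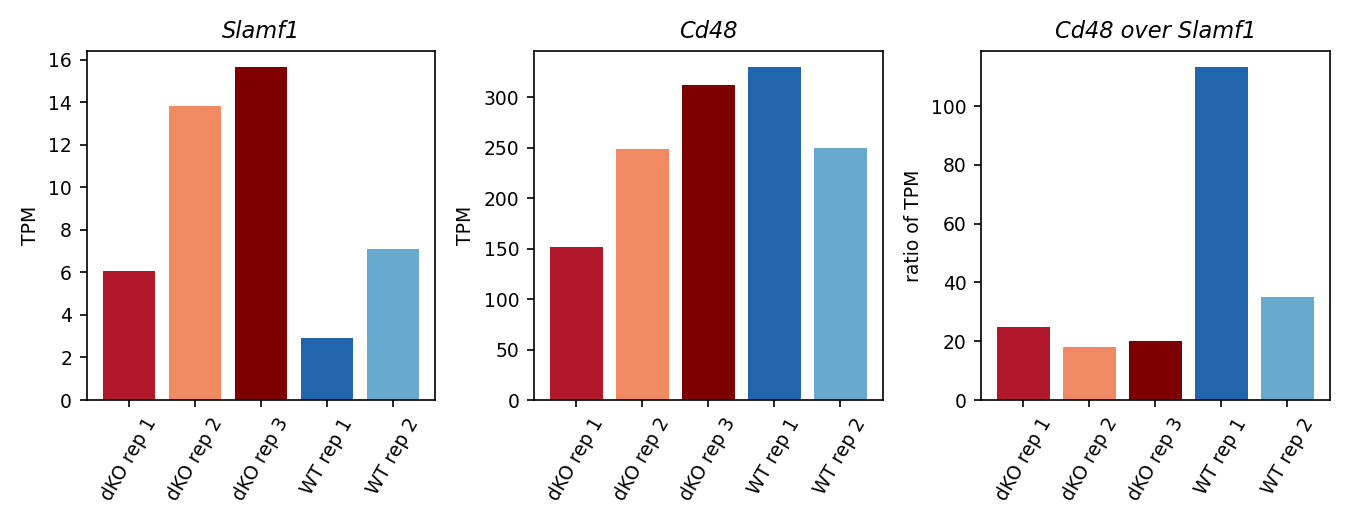
Bars give TPM of Slamf1 and of Cd48, and the ratio of Cd48 to Slamf1 TPM, in each library, with the 3 libraries labelled dKO left of the 2 WT libraries. The ratio is 18.0 to 25.0 in the libraries labelled dKO and 35.1 and 113 in WT.

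Fgd5, an exchange factor for the small GTPase Cdc42, was the least even member. It had 16.3, 1.49 and 11.6 TPM in the libraries labelled dKO, against 8.59 and 1.97 TPM in WT. The libraries labelled dKO differed 10.9-fold among themselves, with dKO replicate 2 the lowest of all 5 at 66 counts. Its log2 fold change of 0.71 had an interval of -1.13 to 2.56, and it was 0.24 without dKO replicate 1. An antisense gene that overlaps Fgd5, 4930466I24Rik, had 15 counts in dKO replicate 1 and 0 elsewhere. Ctnnal1, an alpha-catenin-like protein, had 9.14, 13.1 and 7.94 TPM in the libraries labelled dKO, against 11 and 6.61 TPM in WT. WT replicate 1 lay inside the range of the libraries labelled dKO and WT replicate 2 below it. The log2 fold change was -0.12 (95% interval -1.12 to 0.89) on counts and 0.18 on log2 TPM with a pseudocount of 1.

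**Figure D3:**
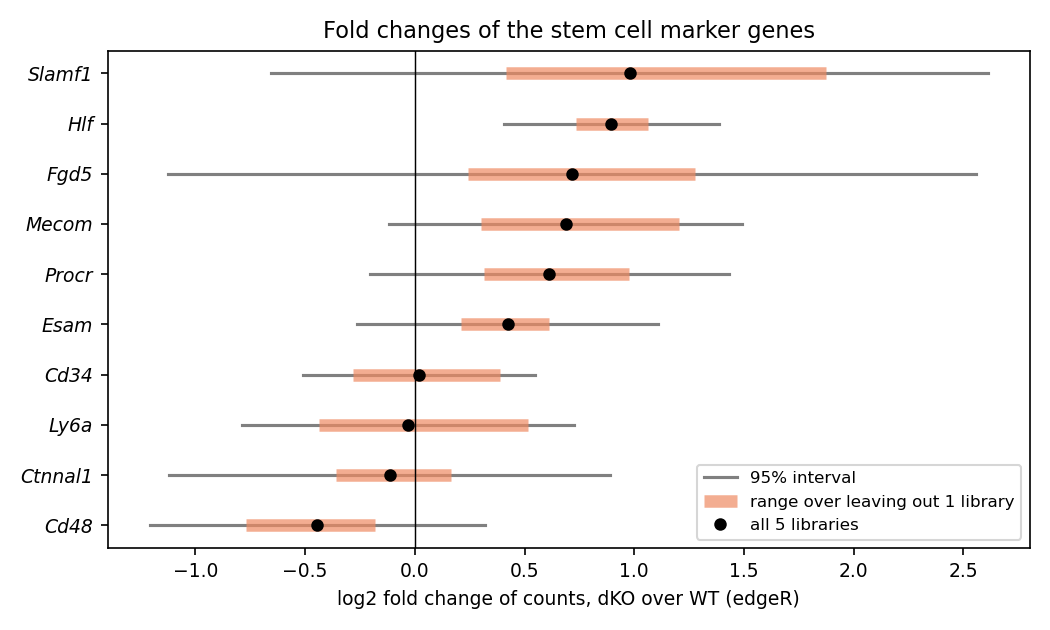
Log2 fold change of counts of each member, libraries labelled dKO over WT, by edgeR (dots), with 95% intervals (lines) and the range when each library is left out in turn (bars). The interval of Hlf, 0.41 to 1.38, is the one that does not include 0, and the bars of Cd34, Ly6a and Ctnnal1 cross 0.

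In TPM, which allows levels of different genes to be set side by side, Cd34, Ly6a and Cd48 formed the top of the order, at means over all libraries of 338, 281 and 259 TPM. Esam, Procr, Hlf and Mecom followed at 75.8, 56.6, 44.7 and 19.2 TPM, and Ctnnal1, Slamf1 and Fgd5 came last at 9.56, 9.11 and 7.98 TPM. Cd34 exceeded Ly6a, Cd48 exceeded Esam and Hlf exceeded Mecom in 5 of 5 libraries. The order of Ly6a and Cd48 was not stable, Ly6a being higher in 2 of 5 libraries. The last 3 members could not be ordered either, since Ctnnal1 exceeded Slamf1 in 2 of 5 libraries and Slamf1 exceeded Fgd5 in 3 of 5.

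Set against each gene's own mean, the members showed a pattern by library as well as by label. WT replicate 2 lay below every library labelled dKO in 7 of 10 members (Procr, Esam, Mecom, Hlf, Ctnnal1, Ly6a and Cd34), on CPM and on TPM, where 25.9% and 35.7% of all genes did so. WT replicate 1 lay above every library labelled dKO in 4 members on CPM (Cd48, Ctnnal1, Ly6a and Cd34), as did 25.7% of all genes. Averaged over the 8 members other than Cd48 and Cd34, the deviation was 0.29, -0.11 and 0.42 log2 CPM in the libraries labelled dKO, against -0.11 and -0.50 in WT. dKO replicate 2 and WT replicate 1 were thus level, and WT replicate 2 was the lowest.

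WT replicate 2 also differed in RNA of other cell types. Granulocyte progenitor markers summed to 13260, 16720 and 11940 CPM in the libraries labelled dKO, against 7269 and 42960 CPM in WT, the last in WT replicate 2. All 10 genes of that list were tested, 2 being higher and 8 lower (median log2 fold change -0.82), whereas without WT replicate 2 all 10 were higher (median 0.59). Ms4a3 stood at 2015 CPM in WT replicate 2 against 231 CPM in WT replicate 1. Several members are also endothelial genes. Of 18 endothelial markers 15 were tested and 11 were higher, with sums of 602, 626 and 522 CPM in libraries labelled dKO, against 557 and 406 CPM in WT. Cdh5, which defines endothelial cells, was at 0 except for 3 counts in dKO replicate 3. Markers of other blood lineages had larger median fold changes than the members' 0.52. B cell markers summed to 2405, 1905 and 2702 CPM in the libraries labelled dKO, against 1045 and 209 CPM in WT, with 7 of 8 tested genes higher and a median log2 fold change of 1.98 (1.29 without WT replicate 2 and 3.32 without WT replicate 1). Of that sum Ighm alone accounted for 2275, 1605 and 2348 CPM in the libraries labelled dKO, against 879 and 96.0 CPM in WT. Ighm is also a gene of the progenitor and lymphoid-primed list. Within the B cell list Pax5 had 0 to 9 counts per library and Ms4a1 0 or 1. Cd79a had 556, 821 and 1408 counts in the libraries labelled dKO, against 409 and 88 in WT. Monocyte, macrophage and dendritic cell markers summed to 589, 817 and 1062 CPM in the libraries labelled dKO, against 434 and 368 CPM in WT, and 11 of 12 tested genes were higher (median 1.19). Mast cell and basophil markers summed to 413, 1089 and 524 CPM, against 219 and 680 CPM in WT, with 6 of 8 higher (median 1.43). Megakaryocyte and erythroid markers summed to 1836, 1898 and 2349 CPM, against 1328 and 1290 CPM in WT, with 9 of 15 higher (median 0.63). T and NK cell markers summed to 574, 728 and 689 CPM, against 716 and 1890 CPM in WT, and 4 of 5 tested genes were higher (median 1.16, and -0.13 without dKO replicate 2). None of these genes was called by edgeR with all 5 libraries. The part of RNA of these cell types in the members' values was not tested. In such bulk samples fewer stem cells and less RNA per cell cannot be told apart.

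**Figure D4:**
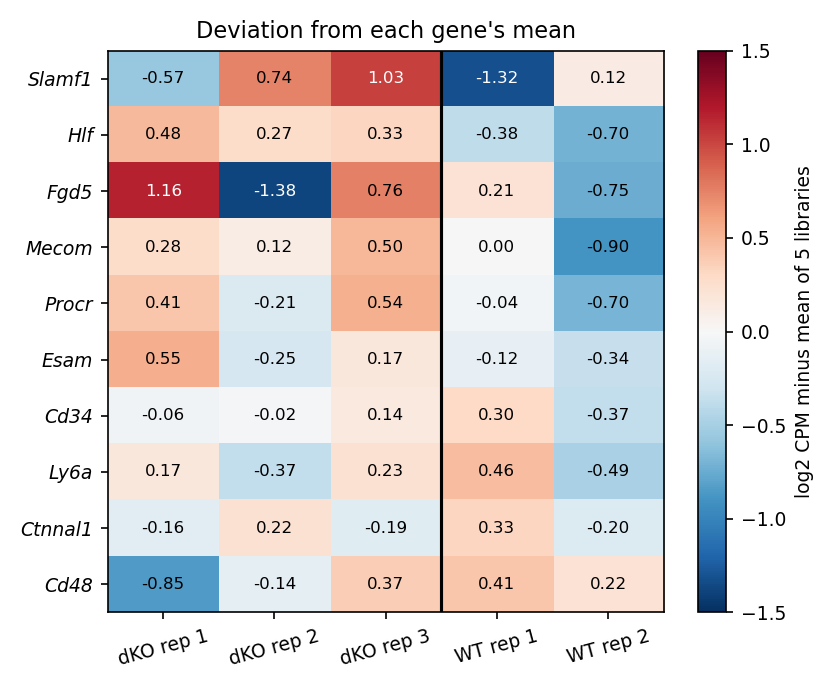
Heat map of log2 CPM of each member in each library minus the gene's mean over the 5 libraries, with libraries labelled dKO left of WT and genes ordered by fold change. Hlf is positive in all 3 libraries labelled dKO (0.27 to 0.48) and negative in both WT libraries (-0.38 and -0.70), and Fgd5 is at -1.38 in dKO replicate 2.

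The pathway of each member was read from lists of its relatives. For Procr, the receptor F2r (PAR1), which signals when activated protein C bound to Procr cleaves it, had 33.5, 58.6 and 44.7 TPM in the libraries labelled dKO, against 14.5 and 9.52 TPM in WT. All 3 libraries labelled dKO exceeded both WT libraries, the log2 fold change on counts was 1.77 (95% interval 0.96 to 2.59) and the adjusted p was 0.430 by the edgeR test. Of 8 tested genes of this pathway, Procr included, 5 were higher, 3 lower and 0 were called, with a median of 0.36. Leaving out WT replicate 2 gave a median of 0.94, and leaving out WT replicate 1 gave -0.17. Among relatives of Esam, the junctional adhesion genes F11r and Jam2 stood at 0.61 and 1.2 on the log2 fold change scale (F11r at 0.20 without WT replicate 2 and 1.18 without WT replicate 1), and the 10 tested genes had a median of 0.03 with 7 higher.

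For Hlf, 13 of 16 tested PAR bZIP and circadian genes, Hlf included, were higher (median log2 fold change 0.33) and 0 were called. This lean varied with the libraries used: as each library was dropped in turn, 9 to 14 of the 16 genes were higher. The smallest list median, 0.24, came from dropping dKO replicate 3, which left 9 genes higher, and the largest, 0.59, from dropping WT replicate 2. Rora, a nuclear receptor that drives clock genes, had 1.38, and the repressors Per3 and Nr1d2 had 0.45 and 0.72. Nr1d2 rested on dKO replicate 2 and was at 0.14 without it. For Mecom the 16 tested relatives and partners had a median of 0.10 with 9 higher (0.25 without WT replicate 1, 0.05 when dKO replicate 3 was left out, and 0.13 to 0.22 with each other library left out), and the smallest p-value was that of Gata2, a stem cell factor, at 145, 185 and 121 CPM in the libraries labelled dKO against 82.0 and 48.5 CPM in WT. For Fgd5, 11 of 14 tested genes of the Fgd family and Cdc42 module were higher with a median of 0.30. Its relatives Fgd2 and Fgd4 had 0.99 and 0.90, the effector Wasl had 1.99, and Cdc42 itself had -0.43 (95% interval -0.80 to -0.06). None of these genes was called by the edgeR test.

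The catenin list of Ctnnal1 had 4 of 7 tested genes higher and a median of 0.19. Ctnna1, alpha-catenin, had 0.46 (0.28 without WT replicate 2), the Wnt effector Ctnnb1 had -0.29 (-0.09 without WT replicate 1), and Jup, plakoglobin, had 2.92 with an interval of 0.28 to 5.56. Jup was highest in dKO replicate 2, without which it was at 1.60, and where it had 516 counts, against 232 and 71 in the other libraries labelled dKO and 63 and 33 in WT. Of the Ly6 family, whose genes Ly6i and Ly6c1 flank Ly6a, 8 were tested, 4 being higher and 4 lower. Ly6d, a lymphoid progenitor marker, had 1.51 (0.74 without WT replicate 2 and 3.27 without WT replicate 1), and Ly6c2, a myeloid marker, had 0.14, with 126 and 670 CPM in the WT libraries, and -0.62 without WT replicate 1. The sialomucin list of Cd34 had 5 of 9 tested genes higher and a median of 0.02, and Podxl, the closest relative of Cd34, had -1.55 with 1 count in dKO replicate 2 and 133 to 301 counts in WT (-3.03 without dKO replicate 1 and -0.89 without WT replicate 1).

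A wider list of 55 other stem cell markers was tested in full, and 51 were higher in the libraries labelled dKO (median log2 fold change 0.67), against 52.2% of all genes higher. The list was chosen with earlier results of these data known, so its counts are a description only. Some of its genes were near the floor, with 0 counts in a library. Every library labelled dKO exceeded both WT libraries on CPM in 21 of the 55, where 13.7% of all genes did so, and 0 were called by edgeR. Examples were the cell cycle inhibitor Cdkn1a (1.93), the lymphotoxin gene Ltb (1.38), the RNA-binding protein Msi2 (1.37) and the adhesion protein Mmrn1 (1.28). Without WT replicate 2 the list had 42 of 55 higher and a median of 0.52. Of 17 tested progenitor and lymphoid-primed genes 11 were higher, against 52.2% of all genes, and 0 were called by edgeR. Their median was 0.41 (0.05 without dKO replicate 2). Among them were Satb1 (1.35) and Flt3 (0.91, and 0.48 without WT replicate 2 or 1.51 without WT replicate 1). Of the gate genes, 6 of 7 tested were higher, and 5 of 7 without WT replicate 2, against 52.2% of all genes. This list mixes opposite gates. Kit (0.84) and Ly6a (-0.03) encode proteins that the sort required, whereas the proteins of Flt3 and Cd34 (0.02) were excluded. DESeq2, unlike edgeR, called Kit, F2r, Gata2, Cdkn1a, Ltb, Mmrn1, Msi2 and Satb1 higher. It called 1.12% of all genes higher and 0.664% lower. Immediate early genes, which respond to handling of cells, were higher in 21 of 21 tested genes with a median of 1.09, and their part in the members' values was not tested. The DESeq2 calls were not particular to stem cell genes. They took in 7 of the 55 other stem cell markers and 9 of 21 immediate early genes. Mast cell and basophil genes had 3 of 8 called, B cell genes 2 of 8 and granulocyte progenitor genes 0 of 10.

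**Figure D5:**
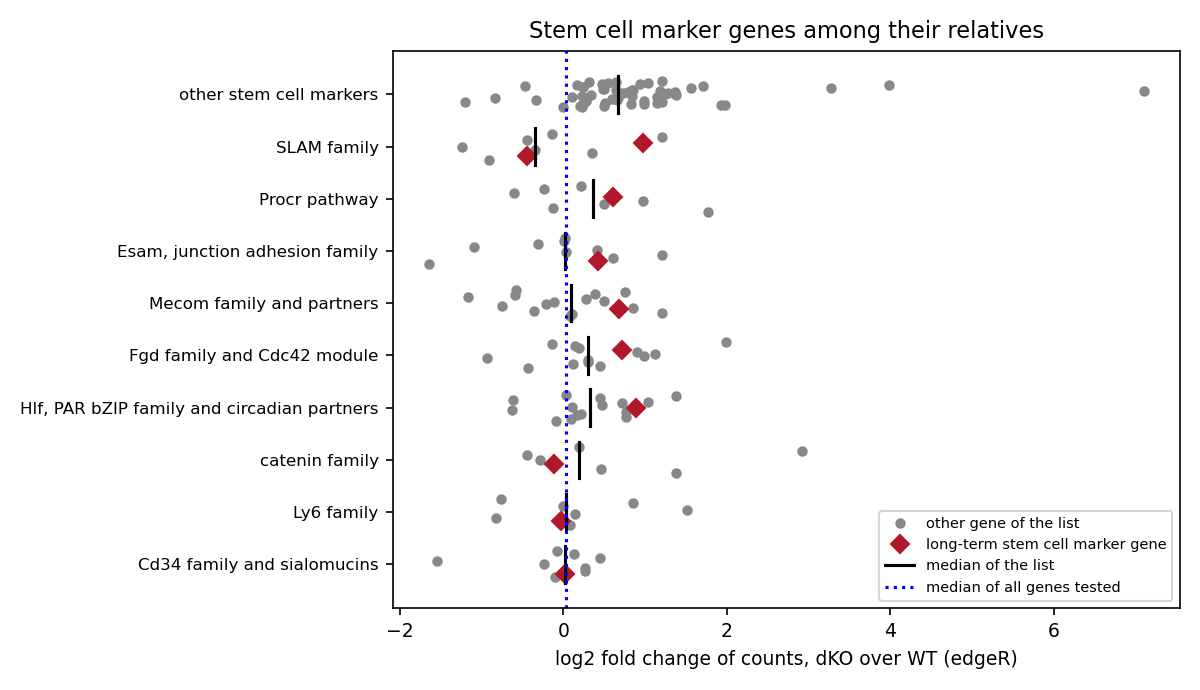
Log2 fold change, libraries labelled dKO over WT, of each tested gene (grey) and each member (red diamonds) in the list of its relatives, with list medians (black) and the median of all tested genes (dotted, 0.04). Hlf, Mecom, Procr and Esam lie above the median of their list, and Ly6a, Cd34 and Ctnnal1 at or below it.

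The genes most like the 8 members other than Cd48 and Cd34 were sought by Pearson's r of log2 CPM with the members' mean deviation. Over the 5 libraries the highest values were those of 2310003F16Rik, Clstn1, Gm12216, Utrn and Dennd4c, from 0.998 for the first to 0.996 for the last. Utrn, which encodes utrophin, had 50.1, 30 and 65.8 CPM in the libraries labelled dKO, against 26.5 and 14.9 CPM in WT. With 5 points that share libraries and depth, 319 of 13686 other genes reached an r of 0.9 or more, so the ranking is a description only.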

How the data were processed

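For each of 5 libraries the authors deposited 1 table of raw counts, which are whole numbers without normalization, and 1 of TPM values scaled by the authors, per the file headers. In the submitters' processing notes stand the build mm9, the aligner TopHat2 2.1.1, RSEM 1.2.31, HTSeq, Trimmomatic, FastQC 0.11.5 and DESeq2, with no word on which tool made which values. Strand was not stated, so reads of overlapping genes cannot be separated. The 30 entries without a gene name, 0.216% to 0.269% of counts, were left out.

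The count test was edgeR 4.0.16 under R 4.3.3 (TMM scaling, filterByExpr, robust quasi-likelihood, no covariate, all 5 libraries), with Benjamini-Hochberg adjustment over all genes tested and a threshold of 0.05. Log2 fold changes are dKO over WT, CPM values are TMM-scaled, and TPM is as deposited. Log2 CPM used a prior count of 2. The alternatives were DESeq2 1.42.0, RLE scaling, no filter, a filter of 5 CPM in 2 libraries, limma 3.58.1 on log2 TPM, a replicate block and each library left out. The tests were run on simulated counts, with planted fold changes larger than that of any member. That run checked the direction of the changes and, for edgeR, their size. Power at changes as small as those of the members was not tested. Libraries of a group differed far beyond sampling noise (chi-square over its degrees of freedom 99.6 to 162) and were all kept as separate samples.

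Genes named are the 10 members, Lrp5, Lrp6, the gate genes, a member's family relatives, up to 4 genes per list with the smallest p-values and the 5 most alike in pattern. Cd3e, Ly6g, Cd4, Cd79a, Pax5, Ms4a1 and Cdh5 were chosen after their values were seen. Members and lists were chosen with earlier results of these data known. Promoters were matched by symbol to RefSeq, and gene neighbours come from GENCODE M21, both on GRCm38, so no coordinates of the files' build are given.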

Additional observations from a re-analysis of the deposited data

How the results depend on the processing

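Counts of called genes changed with the tool and the filter: against 0 higher and 0 lower, DESeq2 called 154 higher and 91 lower, with 1 member (Hlf), no filter on low counts gave 5 and 3, and the replicate block 1 and 0. Leaving out 1 library gave 0 to 2 higher and 0 to 3 lower, and 0 members. The cause was not tested. The log2 difference of the Slamf1 to Cd48 ratio was 1.58 with a pseudocount of 0.1 and 1.43 on CPM, and ranged from 0.70 to 2.15 with 1 library left out. Of 120 values of members under alternatives, 109 kept direction and side of the threshold and 10 turned sign, as did 5 of 370 values of other named genes. Because no gene was called in the main fit, a value could change side only by gaining a call. The count of 109 is therefore no measure of how firm the members' differences are. On log2 TPM with pseudocounts of 1 and 0.1, Ctnnal1 had 0.18 and 0.20 and Ly6a 0.21 and 0.21, where the median of all genes was 0.14. With 1 library left out Ctnnal1 ranged from -0.36 to 0.17, Ly6a from -0.43 to 0.52, Cd34 from -0.28 to 0.39, Cd244 from -1.64 to 0.58, Ly6c2 from -0.62 to 1.80, Slamf7 from -0.27 to 2.77 and Ms4a3 from -2.52 to 0.61. List medians near 0 also crossed it when 1 library was left out: the relatives of Esam ranged from -0.13 to 0.38, the catenins from -0.04 to 0.48, the Ly6 family from -0.14 to 0.25 and the sialomucins from -0.04 to 0.11. Deviations of same-numbered libraries correlated at only 0.03 and 0.05 across genes. The WT deviations mirror each other, so these values cannot exclude that replicate numbers pair the libraries. A replicate block also leaves dKO replicate 3 without a partner. With the replicate block Cd34 had -0.0047, Slamf7 -1.87, the median of the members was 0.27, those of the relatives of Mecom, of the Procr pathway and of the catenins were -0.14, -0.13 and -0.03, and no member was called.

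With 3 and 2 libraries, the interval of Fgd5 spanned 2-fold changes in either direction. The lowest count of a member was 66. In a gene listed at 0, 3 counts per library, or 0.107 to 0.187 CPM, remain possible (counting error only).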
